A study of Mus musculus with 19 samples.

Results

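The genes described here are 32 genes of homologous recombination and of Fanconi anaemia repair, out of 35274 genes listed in the count tables of a study of mouse liver hepatocytes. They were taken by name: 6 mediators of strand invasion, 5 genes of the paralog complexes, 2 strand exchange motors, 5 genes of break sensing and end resection, 8 genes of the Fanconi core complex, the pair Fancd2 and Fanci, and 4 helicases and junction nucleases. All 32 were found in the tables, and all 32 passed the filter on low counts that left 16387 genes.

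All animals shared the genotype OPN-CreERT2;Rosa26R-mT/mG, so the controls carried the same alleles as the injured animals. In it, a tamoxifen-dependent Cre recombinase stands under osteopontin (OPN, gene symbol Spp1) control, a gene active in biliary cells, and the mT/mG reporter turns a cell and its descendants from red (tdTomato) to green fluorescence once Cre has acted. CTL samples were native hepatocytes of control liver. Chronically injured liver gave both other groups: native, tdTomato-positive hepatocytes (RED) and hepatocytes labelled as DR-derived (GREEN), where DR is left unexplained. Each group had 5 samples described as biological replicates. The kind of injury, the animals' age and sex, the tamoxifen schedule and which samples came from 1 animal were not given. The samples were sequenced in 2 experiments with different kits, experiment 1 selecting poly(A) RNA and experiment 2 removing ribosomal RNA, and each group entered with 2 libraries of experiment 1 and 3 of experiment 2.

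Homologous recombination repairs a double-strand break from an intact copy of the sequence, usually the sister chromatid, and is therefore used mainly in S and G2 phase. The Mre11-Rad50-Nbn complex and CtIP trim the ends, Brca1, Bard1, Palb2 and Brca2 prepare the single strand for invasion of the copy, and Rad54 drives that step. The Fanconi pathway handles crosslinks between the strands. In it, a core complex of Fanc proteins attaches ubiquitin to Fancd2 and Fanci, which then call in nucleases such as those held by Slx4. Many of these genes are transcribed most in dividing cells, and resting hepatocytes seldom divide.

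The sequences upstream of 4 of the genes that rose, and of Blm, which did not pass in any comparison, are shown because E2F factors and the DREAM complex, which control cell cycle genes, act through short upstream motifs. RefSeq promoter windows (GRCm38.p6, 250 bases before to 50 after the start) were found for 24 of the 32 genes, 27 windows in all; Exo1, Fancd2, Nbn, Rad50, Rad51d, Rad54b, Rbbp8 and Xrcc2 had none. The stretches printed run 5′ to 3′ on the gene's strand and lie before every annotated exon of the gene. Capitals mark a motif, each searched on both strands. The E2F motif was spelled TTCCCGC in its first form, and TTGGCGC in the next, and TTCGCGC in the third, and TTGCCGC in the last. The CHR element was spelled TTTGAA. The CCAAT box reads ATTGG where it lies on the other strand. None of the printed motifs overlap each other. In the stretches of Rad51ap1, Fanca and Rad51b only CCAAT boxes are marked, and no E2F motif or CHR element. The stretches lie, in the order printed, at chr1:71103147-71103222 (minus strand), chr6:126939588-126939737 (minus), chr8:123318577-123318726 (minus), chr12:79297132-79297281 (plus) and chr7:80535120-80535248 (minus).
Bard1: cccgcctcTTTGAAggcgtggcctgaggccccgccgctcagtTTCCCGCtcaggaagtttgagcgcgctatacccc
Rad51ap1: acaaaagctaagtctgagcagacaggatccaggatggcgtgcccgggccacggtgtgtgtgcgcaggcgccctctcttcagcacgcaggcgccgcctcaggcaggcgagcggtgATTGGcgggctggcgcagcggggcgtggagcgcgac
Fanca: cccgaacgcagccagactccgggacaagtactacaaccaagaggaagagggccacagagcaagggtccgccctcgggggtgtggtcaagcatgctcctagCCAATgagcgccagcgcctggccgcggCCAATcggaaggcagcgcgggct
Rad51b: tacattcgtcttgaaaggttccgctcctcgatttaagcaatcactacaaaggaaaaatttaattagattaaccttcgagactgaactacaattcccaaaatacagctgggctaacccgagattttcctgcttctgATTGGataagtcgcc
Blm: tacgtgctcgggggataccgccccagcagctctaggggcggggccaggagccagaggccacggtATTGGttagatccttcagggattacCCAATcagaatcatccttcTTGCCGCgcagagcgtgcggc

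An E2F motif was present in 14 of the 27 windows, against 9.57% of all 32851 windows in the table. It was in 2 of the 9 windows of genes that passed the test in any comparison (Bard1 and Rad51ap1, the latter 12 bases inside the transcript and so not printed) and in 12 of the 18 windows of genes that did not, among them Brca1, Brca2 and Rad51c. A CCAAT box was in 7 of those 9 windows and 11 of the other 18, against 37.4% of all windows. The 9 windows are of 7 genes. Rad54l and Rad51b each entered with 2 overlapping windows that hold the same CCAAT box, so these boxes were counted more than once. Rad51c also entered with 2 windows, both with an E2F motif. The CHR element was in 3 windows, those of Bard1, Eme1 and Rad51b, against 17.9% of all. A match is a run of letters in the window and was not tested as a site of binding.

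Of the 32 genes, 7 rose in RED over CTL (Rad51ap1, Rad51b, Rad54l, Rbbp8, Fanca, Fancd2 and Eme1), 1 rose in GREEN over RED (Rbbp8) and 10 rose in GREEN over CTL (the same 7 with Bard1, Exo1 and Slx4). None fell. At an unadjusted p under 0.05, 1, 0 and 2 were lower in the 3 comparisons, and DESeq2 called the same numbers lower while limma-voom called 0. The test was edgeR's quasi-likelihood F test with Benjamini-Hochberg adjustment over all 16387 genes, to which every adjusted p refers unless another tool is named. Of all genes tested, 14.2% rose in RED over CTL, 9.68% in GREEN over RED and 29.5% in GREEN over CTL, and 1.99%, 3.22% and 18.6% fell. The 10 of 32 in GREEN over CTL, 31.25%, is thus near the background; the 7 of 32 in RED over CTL is 21.9%, and the 1 of 32 in GREEN over RED is 3.12%. The median log2 fold changes of the 32 genes were 0.20, 0.05 and 0.34, against 0.05, -0.02 and 0.11 over all genes. The comparisons share samples: RED and GREEN were each set against the same CTL libraries, so the 7 genes common to both are not independent observations.

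**Figure D1:**
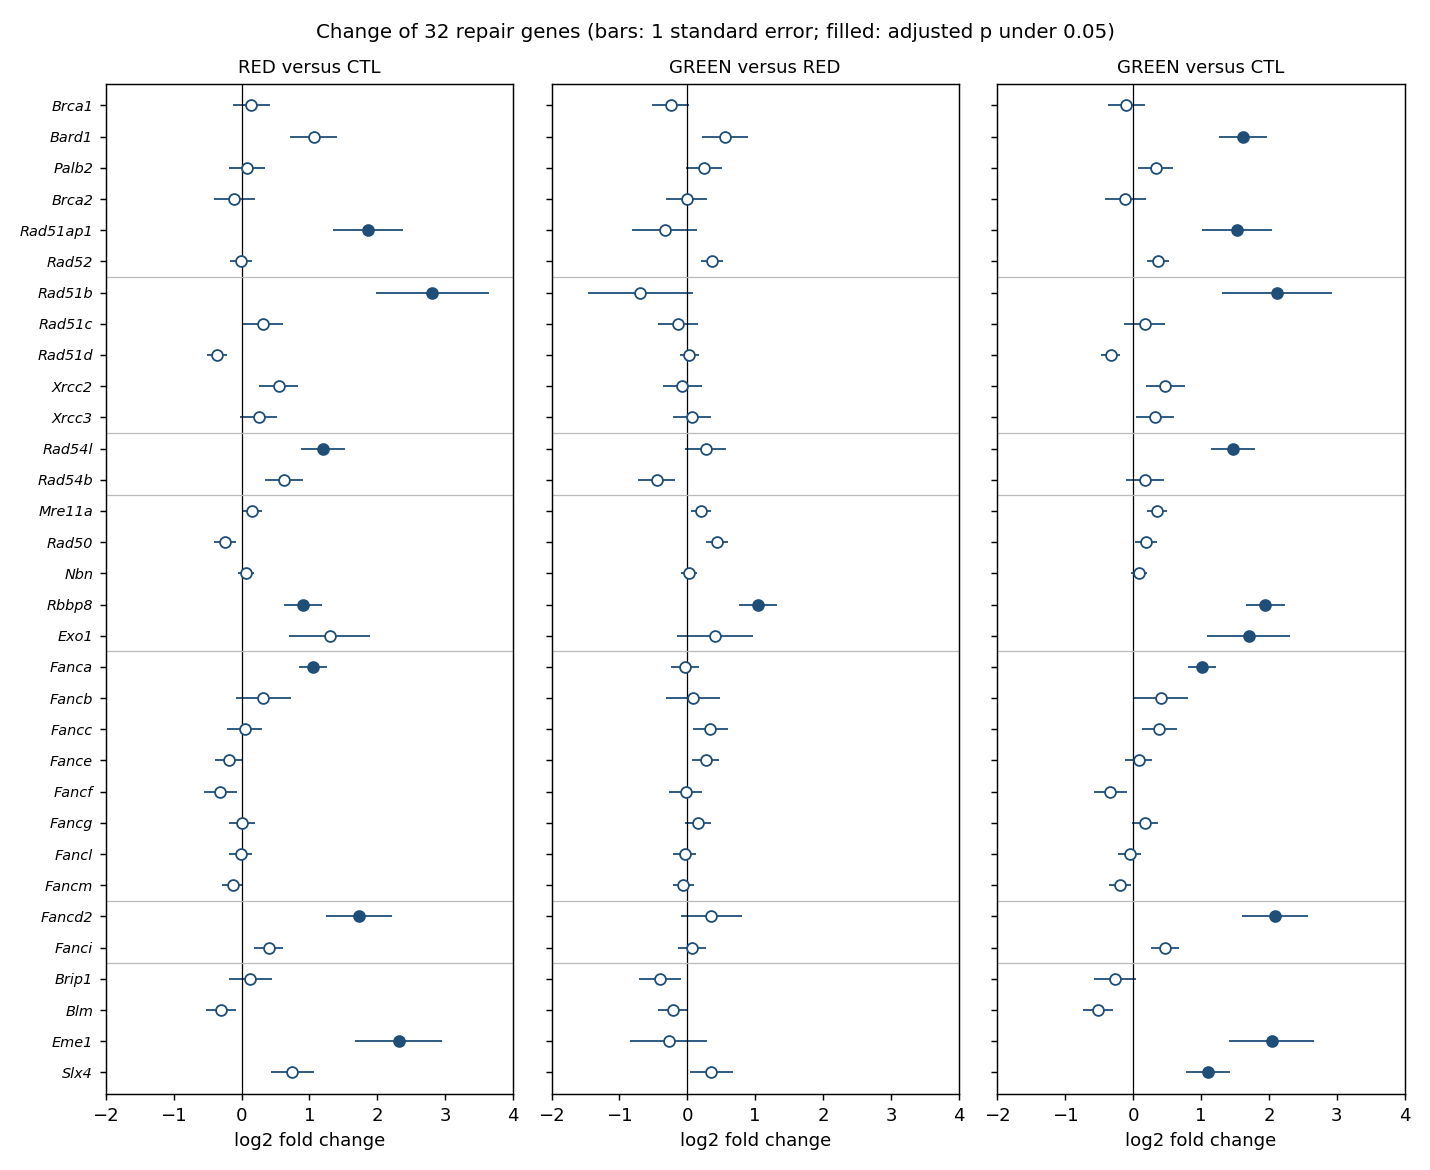
Log2 fold change (horizontal axes) of each of the 32 genes, 1 row per gene in the order of the roles, with 1 panel per comparison, RED over CTL on the left and GREEN over CTL on the right. Points are edgeR estimates, bars are 1 standard error, and filled points have an adjusted p under 0.05: 7, 1 and 10 points are filled, all to the right of 0.

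Marker and mitosis genes moved with the groups. Of 30 mitosis genes, 29 rose in RED over CTL and 28 in GREEN over CTL, with none called in GREEN over RED. Their summed level was 13.2 to 47.9 CPM (estimated counts scaled by library size and TMM factor) in CTL, 48.7 to 316 in RED and 47.4 to 252 in GREEN, and the low ends of the injured ranges were RED 1 (74.0), RED 2 (48.7), GREEN 1 (47.4) and GREEN 5 (82.2). The 16 hepatocyte markers summed to 157927 to 211066 CPM in CTL, 119984 to 170273 in RED and 44174 to 107354 in GREEN, so hepatocyte RNA was abundant in every sample. The 16 biliary markers summed to 47.9 to 317 CPM in CTL, 107 to 458 in RED and 652 to 9478 in GREEN, and Cftr was at 0 in all CTL libraries. Endothelial markers (15 genes; 60.1 to 176, 504 to 2537 and 472 to 1018 CPM), stellate and matrix markers (14 genes; at most 113 in CTL, then 345 to 1985 and 893 to 2749 CPM) and macrophage markers (15 genes; 41.0 to 115, 134 to 1721 and 164 to 605 CPM) were also higher in the injured groups (ranges given for CTL, RED and GREEN in turn). Neutrophil markers (7 of 10 tested) summed to 0.472 to 3.37, 6.37 to 27.3 and 7.53 to 42.5 CPM, with Ly6g at 0 in CTL. Lymphocyte markers (6 of 14 tested) summed to 1.46 to 6.81, 1.44 to 5.50 and 2.98 to 5.46 CPM, with Cd79a, Nkg7 and Ncr1 at 0 in CTL. The part of these cells and of dividing cells in the changes of the repair genes was not tested. In bulk samples, fewer cells that express a gene and less RNA per cell cannot be told apart.

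Among the mediators of strand invasion, Bard1 and Rad51ap1 rose, and Brca1, Palb2, Brca2 and Rad52 did not pass in any comparison. Bard1, the partner with which Brca1 forms a ubiquitin ligase (chromosome 1, 71027498 to 71103146, GRCm38), had 0.909, 0.967, 0.197, 0.171 and 1.00 CPM in CTL 1 to CTL 5. Among injured samples it had 0.679, 1.30, 1.84, 1.77 and 0.739 in RED 1 to RED 5 and 1.28, 2.02, 2.34, 1.62 and 1.20 in GREEN 1 to GREEN 5. Every GREEN sample lay above every CTL sample, while RED 1 and RED 5 lay within the CTL range. Between GREEN and CTL the difference was 1.62 on the log2 scale (SE 0.35, adjusted p = 0.0022). It was 2.79 within experiment 1 and 0.97 within experiment 2, where it did not pass (adjusted p = 0.070). The call held with each of the 15 samples left out in turn, and RED over CTL, at 1.06 (SE 0.35), just missed the threshold (adjusted p = 0.052). Brca1 itself stood at 2.55 ± 0.796 CPM in CTL, 2.82 ± 0.444 in RED and 2.38 ± 0.629 in GREEN (mean ± SD, n = 5 each), a log2 fold change of -0.10 (SE 0.27) in GREEN over CTL.

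Rad51ap1, which stimulates strand invasion (chromosome 6, 126923050 to 126939587), had 0.338, 0.157, 0.276, 0.057 and 0.236 CPM in CTL. The injured samples had 0.509, 0.701, 0.814, 0.621 and 1.63 in RED and 0.207, 0.653, 0.517, 1.44 and 0.715 in GREEN. All RED samples lay above all CTL samples, with RED 5 far above the other RED samples, and GREEN 1 alone of the GREEN samples fell within the CTL range. RED exceeded CTL by 1.87 on the log2 scale (SE 0.52, adjusted p = 0.022; 2.06 and 1.53 within experiments 1 and 2) and GREEN exceeded CTL by 1.53 (SE 0.52, adjusted p = 0.025; 2.58 and 0.91). The RED call ended without CTL 2, CTL 3, CTL 4, RED 3 or RED 5 (adjusted p = 0.052 to 0.067), and the GREEN call without CTL 2, CTL 3, CTL 4, GREEN 2 or GREEN 4 (0.052 to 0.073). Neither experiment alone gave the RED call (adjusted p = 0.13 and 0.12), nor did the experiment 1 library of the samples that have 2 (0.20), and the GREEN call ended in experiment 2 alone (0.24) and without GREEN 4 and GREEN 5 (0.23). The counts behind the gene ran from 1.07 to 72.6 per library, the fewest of the members that had counts in every library.

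Brca2, which acts on the resected single strand, and Palb2, which links it to Brca1, had log2 fold changes between -0.12 and 0.33 in the 3 comparisons. Rad52, a mediator of strand annealing, had 3.87 to 4.70 CPM in CTL, 3.70 to 5.51 in RED and 4.96 to 5.93 in GREEN. All GREEN samples of Rad52 were above all CTL samples, but the difference of 0.36 (SE 0.16) did not pass (adjusted p = 0.079); with DESeq2 it did (adjusted p = 0.029), as did GREEN over RED (0.031).

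The 5 genes of the paralog complexes, which assist strand invasion, are Rad51b, Rad51c, Rad51d, Xrcc2 and Xrcc3, and 1 of them, Rad51b, rose. Rad51b (chromosome 12, 79297282 to 79814690) had 0.832, 9.28, 3.62, 2.45 and 0.561 CPM in CTL. Levels in injured liver were 58.5, 25.4, 21.5, 7.17 and 7.90 in RED and 24.1, 18.6, 4.85, 4.43 and 21.1 in GREEN. Its RED values spread widely, with RED 1 highest, and CTL 2 lay above RED 4, RED 5, GREEN 3 and GREEN 4. RED exceeded CTL by 2.81 on the log2 scale (SE 0.83, adjusted p = 0.032; 3.88 and 2.34 within experiments 1 and 2), and GREEN exceeded CTL by 2.12 (SE 0.80, adjusted p = 0.042; 2.52 and 2.15). The calls ended without any 1 of 7 samples in RED over CTL (CTL 1, CTL 3, CTL 4, CTL 5, RED 1, RED 2 or RED 3; adjusted p = 0.054 to 0.093) and of 9 samples in GREEN over CTL (CTL 1, CTL 3, CTL 4, CTL 5, RED 2, RED 3, GREEN 1, GREEN 2 or GREEN 5; 0.051 to 0.100). With library codes as a block, a fit that takes both comparisons with CTL from the experiment 1 libraries, neither passed (adjusted p = 0.12 and 0.14). Neither passed by limma-voom (0.11 and 0.100) or from experiment 2 alone (0.26 and 0.18), and the GREEN call also ended without GREEN 4 and GREEN 5 (0.090).

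The spread of Rad51b within each group followed the Y-linked gene Ddx3y, which was at 48.4 to 88.1 CPM in CTL 1, CTL 4, CTL 5, RED 4, RED 5, GREEN 3 and GREEN 4 and at 0.039 to 0.415 CPM in the other 8 samples. Eif2s3y, also Y-linked, was at 26.2 to 69.6 CPM in the former samples and at 0.039 to 0.620 in the latter. The classes are thus those of 2 Y-linked genes, and the labels give no sex. In CTL, Rad51b was at 0.561 to 2.45 CPM in the 3 samples with high Ddx3y and 3.62 to 9.28 in the 2 with low Ddx3y. In RED it was at 7.17 to 7.90 in 2 samples with high Ddx3y and 21.5 to 58.5 in 3 with low, and in GREEN at 4.43 to 4.85 in 2 and 18.6 to 24.1 in 3. The ranges did not overlap in any of the 3 groups, and within each class of Ddx3y every RED and GREEN sample lay above every CTL sample. With the Ddx3y class added to the model after seeing the data, Rad51b was higher by 2.48 in RED over CTL (adjusted p = 4.0e-04) and by 1.83 in GREEN over CTL (adjusted p = 0.0010). Among the 10 injured samples, Rad51b, Xrcc3 and Fancm were the members whose values did not overlap between the classes: Xrcc3 had 2.14 to 3.15 CPM with high Ddx3y and 3.93 to 5.42 with low, and Fancm 5.52 to 6.52 and 6.79 to 8.89. Of all genes tested, 931 (5.68%) were separated in that way, against 3 of the 32.

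**Figure D2:**
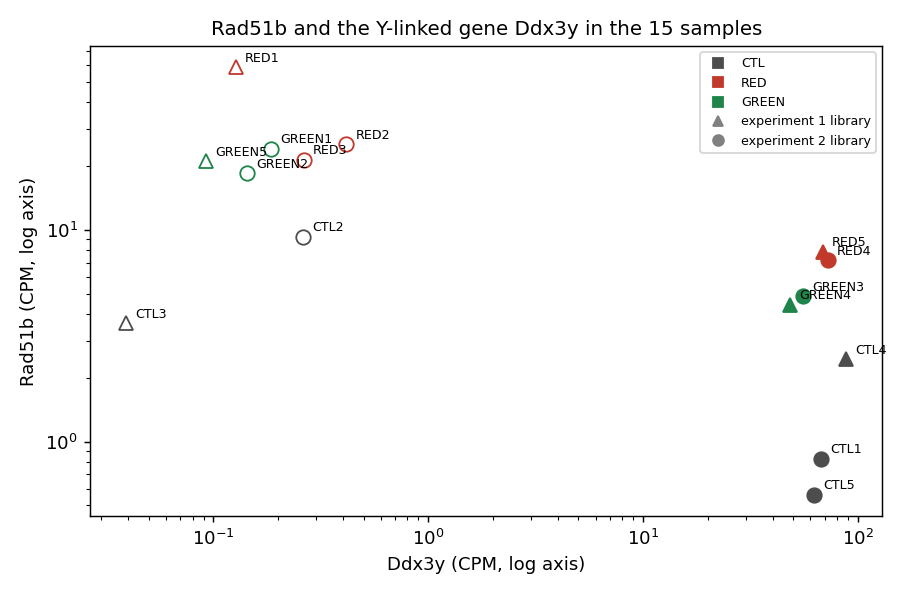
Level of Rad51b (vertical axis, CPM, log scale) against that of the Y-linked gene Ddx3y (horizontal axis, CPM, log scale) in the 15 samples. Colours are groups, triangles are experiment 1 libraries, circles are experiment 2 libraries, and filled symbols have over 10 CPM of Ddx3y; within each side, the CTL samples are lowest, at 0.561 to 2.45 CPM on the right and 3.62 to 9.28 on the left.

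The other 4 paralogs, Rad51c, Rad51d, Xrcc2 and Xrcc3, had log2 fold changes from -0.36 to 0.55. Rad51d had the most negative values among them, -0.36 (SE 0.14) in RED over CTL and -0.33 (SE 0.14) in GREEN over CTL, from 13.1 ± 1.48 CPM in CTL to 10.2 ± 1.78 in RED and 10.4 ± 1.45 in GREEN. It did not pass by edgeR (adjusted p = 0.11 and 0.067) and was lower by DESeq2 (adjusted p = 0.027 and 0.014).

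Rad54l, the gene of the motor protein Rad54 that drives strand exchange (chromosome 4, 116094264 to 116123690), had 0.780, 0.810, 0.315, 0.399 and 0.944 CPM in CTL. Injured samples stood at 0.467, 1.43, 3.07, 1.50 and 1.09 in RED and 1.84, 2.27, 1.94, 1.48 and 0.991 in GREEN. All GREEN samples were above all CTL samples, GREEN 5 and CTL 5 being closest, and RED 1 alone of the RED samples lay within the CTL range. The GREEN samples exceeded CTL by 1.47 on the log2 scale (SE 0.32, adjusted p = 0.0023; 1.53 and 1.25 within experiments 1 and 2), with the call held in all 15 fits that left out a sample. RED exceeded CTL by 1.20 (SE 0.32, adjusted p = 0.018; 1.18 and 1.24), a call that ended without CTL 1, CTL 2, CTL 3, RED 3 or RED 5 (adjusted p = 0.051 to 0.073) and with the block of library codes (0.098). The RED call did not pass in experiment 1 or 2 alone (adjusted p = 0.23 and 0.085) or with the experiment 1 library of the samples that have 2 (0.12), and the GREEN call did not in experiment 1 alone (0.076). Its paralog Rad54b had 1.04 ± 0.262 CPM in CTL, 1.61 ± 0.375 in RED and 1.18 ± 0.264 in GREEN, and did not pass.

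**Figure D3:**
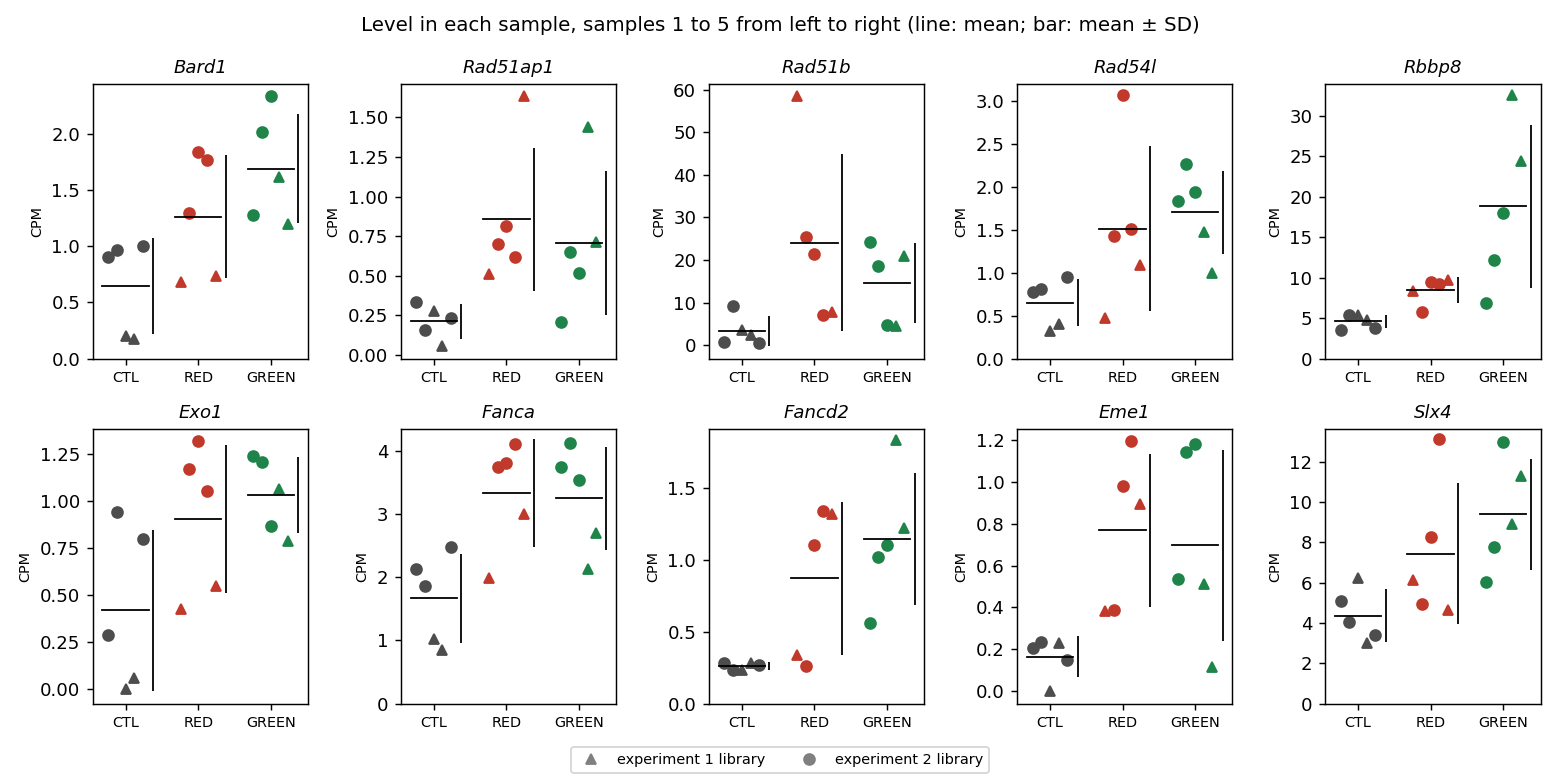
Level (vertical axes, CPM, linear scale of its own in each panel) of the 10 genes that passed the test in any comparison, in CTL, RED and GREEN samples 1 to 5 from left to right. Triangles are experiment 1 libraries, circles are experiment 2 libraries, horizontal lines are means and vertical bars are mean ± SD (n = 5); Rbbp8 stands at 3.59 to 5.43 in CTL, 5.82 to 9.69 in RED and 6.84 to 32.6 in GREEN.

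Of the genes of break sensing and resection, Rbbp8 rose in all 3 comparisons, Exo1 rose in GREEN over CTL, and the members of the Mre11-Rad50-Nbn complex did not pass. Rbbp8 encodes CtIP, which starts resection together with that complex (chromosome 18, 11633276 to 11745221). It had 3.59, 5.33, 5.43, 4.73 and 3.84 CPM in CTL. After injury it had 8.40, 5.82, 9.41, 9.17 and 9.69 in RED and 6.84, 12.2, 18.0, 32.6 and 24.4 in GREEN. Neither injured group overlapped CTL, and 4 of the 5 GREEN samples were above every RED sample, GREEN 1 being the exception. GREEN exceeded CTL by 1.95 on the log2 scale (SE 0.29, adjusted p = 1.5e-04; 2.64 and 1.54 within experiments 1 and 2), and this call held under all 28 alternatives tried.

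RED exceeded CTL in Rbbp8 by 0.90 (SE 0.28, adjusted p = 0.041; 0.91 and 0.94 within the experiments), a call that ended without CTL 1, CTL 3, CTL 4, CTL 5, RED 3, RED 4, RED 5 or GREEN 5 (adjusted p = 0.0503 to 0.12). It also ended by limma-voom (adjusted p = 0.20), without the filter on low counts (0.052), from experiment 2 alone (0.19) and with the experiment 1 library of the samples that have 2, where it was 0.63 (0.29). GREEN exceeded RED in Rbbp8 by 1.05 (SE 0.28, adjusted p = 0.028; 0.12 by limma-voom). That difference was 1.72 within experiment 1 (adjusted p = 0.0013) and 0.60 within experiment 2 (adjusted p = 0.77), and the call ended without RED 1, RED 2, RED 5, GREEN 3, GREEN 4 or GREEN 5 (adjusted p = 0.051 to 0.10). In CPM, the order of the GREEN samples in Rbbp8 was that of their summed biliary markers, which stood at 652, 934, 3702, 4955 and 9478 CPM in GREEN 1, GREEN 2, GREEN 3, GREEN 5 and GREEN 4. GREEN 4 and GREEN 5 were experiment 1 libraries and the others experiment 2 libraries. With the experiment effect removed from Rbbp8, GREEN 3 (4.47 in log2 CPM) lay above GREEN 5 (4.32), so the orders differed there. The share of all genes with the same order was not computed. Without GREEN 4 and GREEN 5 the difference from RED was 0.61 (adjusted p = 0.62), and without GREEN 3, GREEN 4 and GREEN 5, a choice made after seeing the data, 0.26 (adjusted p = 1). The part of biliary cells in this difference was not tested.

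Exo1, a nuclease that extends resection (chromosome 1, 175880581 to 175913489), had 0.286, 0.941, 0, 0.057 and 0.797 CPM in CTL. RED and GREEN samples had 0.424, 1.17, 1.32, 1.05 and 0.545 in RED and 1.24, 1.20, 0.868, 1.06 and 0.784 in GREEN. CTL 3 had a count of 0, which at its depth allows up to 3 counts or 0.118 CPM. The 2 experiment 1 libraries of CTL were below the other CTL libraries, and GREEN 3 and GREEN 5 lay within the CTL range. On the log2 scale GREEN exceeded CTL by 1.70 (SE 0.61, adjusted p = 0.033), by 2.47 within experiment 1 and 0.71 within experiment 2, neither of which passed (adjusted p = 0.077 and 0.29). The call ended without CTL 1, CTL 3, CTL 4, RED 1, RED 4, GREEN 4 or GREEN 5 (adjusted p = 0.052 to 0.094), without GREEN 4 and GREEN 5 together (0.28) and with the experiment 1 library of the samples that have 2 (0.062).

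Mre11a, Rad50 and Nbn, which together detect broken ends, had log2 fold changes between -0.25 and 0.43. Nbn had 13.9 ± 1.43 CPM in CTL, 14.5 ± 1.29 in RED and 14.8 ± 1.85 in GREEN, with log2 fold changes of 0.02 to 0.09 (SE 0.12). Rad50 had 13.4, 18.8, 12.8, 10.8 and 13.6 CPM in CTL. The injured groups had 11.1, 13.7, 12.5, 10.4 and 10.7 in RED and 14.4, 14.3, 14.1, 20.8 and 14.9 in GREEN. All GREEN samples of Rad50 were above all RED samples, by 0.43 on the log2 scale (SE 0.16), which did not pass (adjusted p = 0.089). Mre11a had a value of 0.35 (SE 0.15) in GREEN over CTL that did not pass (adjusted p = 0.058).

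In the Fanconi core complex, the ubiquitin ligase of the pathway, Fanca rose and the other 7 genes did not pass. Fanca, a scaffold subunit (chromosome 8, 123268300 to 123318576), had 2.13, 1.86, 1.02, 0.855 and 2.48 CPM in CTL. Samples of injured liver had 1.99, 3.74, 3.81, 4.11 and 3.00 in RED and 3.74, 4.12, 3.54, 2.13 and 2.70 in GREEN. In the unadjusted values RED 1 and GREEN 4, both from experiment 1, lay within the CTL range. With the experiment effect removed all 10 injured samples were above all 5 CTL samples, the lowest injured value being 1.44 and the highest CTL value 0.93 in log2 CPM. On that scale this also held for Bard1 (-0.19 and -0.52), Rad54l (-0.42 and -0.53) and Rbbp8 (2.79 and 2.72). The other genes that passed in any comparison overlapped on it. The share of all genes separated on that scale was not computed. RED exceeded CTL by 1.05 on the log2 scale (SE 0.21, adjusted p = 0.0028) and GREEN exceeded CTL by 1.01 (SE 0.21, adjusted p = 0.0015), with GREEN over RED at -0.04 (SE 0.20). Both calls held with each sample left out in turn. Within experiments 1 and 2 the RED values were 0.98 and 0.85 (adjusted p = 0.17 and 0.060) and the GREEN values 0.80 and 0.82 (adjusted p = 0.20 and 0.035). With the experiment 1 library of the samples that have 2, the RED call ended (adjusted p = 0.056).

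Fancb, Fancc, Fance, Fancf, Fancg, Fancl, the ligase subunit itself, and Fancm, the translocase that brings the complex to DNA, had log2 fold changes from -0.34 (Fancf, GREEN over CTL, SE 0.24) to 0.41 (Fancb, GREEN over CTL, SE 0.40). Fancl had 5.91 ± 0.694 CPM in CTL, 5.92 ± 1.72 in RED and 5.74 ± 0.904 in GREEN, log2 fold changes of -0.01 to -0.05 (SE 0.17). Fance had 6.55 ± 1.91, 5.67 ± 0.874 and 6.82 ± 1.24 CPM, and Fancg 3.23 ± 0.646, 3.27 ± 0.589 and 3.65 ± 0.502 CPM, in the same order. Thus 1 of 8 genes of the core complex rose in RED over CTL and in GREEN over CTL, with a median over the 8 of 0.00 and 0.13.

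The ID2 pair are the proteins that the core complex modifies, and of its 2 genes Fancd2 rose and Fanci did not pass. Fancd2 (chromosome 6, 113531682 to 113597017) had 0.286, 0.235, 0.236, 0.285 and 0.266 CPM in CTL. In injured liver it had 0.339, 0.260, 1.10, 1.34 and 1.32 in RED and 0.558, 1.02, 1.11, 1.83 and 1.22 in GREEN. The CTL values were close together, and RED 2 lay among them. RED 1 lay a little above the highest CTL sample, and RED 3, RED 4, RED 5 and all GREEN samples lay further above. Fancd2 was higher in GREEN than in CTL by 2.08 on the log2 scale (SE 0.49, adjusted p = 0.0033; 2.70 and 1.76 within experiments 1 and 2), with the call held in each of the 15 fits without a sample. RED exceeded CTL by 1.73 (SE 0.48, adjusted p = 0.023; 2.05 and 1.77), a call that ended without any 1 CTL sample, RED 3, RED 4 or RED 5 (adjusted p = 0.051 to 0.087) and with the block of library codes (0.074). It did not pass by limma-voom (adjusted p = 0.12) or in either experiment alone (0.068 and 0.13), and the GREEN call did not in experiment 2 alone (0.072) or without GREEN 4 and GREEN 5 (0.056). Counts of Fancd2 ran from 5 to 93 per library. Fanci had 3.50 ± 1.19 CPM in CTL, 4.56 ± 1.69 in RED and 4.73 ± 1.18 in GREEN, a value of 0.47 (SE 0.21) in GREEN over CTL (adjusted p = 0.079).

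RED 1, RED 2 and GREEN 1, the injured samples lowest in Fancd2, were also the injured samples lowest in mitosis genes. They were set apart with the Fancd2 values known, so the place of Fancd2 in the counts below follows from that choice. The 30 mitosis genes had a mean log2 CPM, after removing the effect of the experiment, of 1.05 in RED 1, 0.09 in RED 2 and 0.12 in GREEN 1, against 2.85 to 3.03 in RED 3 to RED 5, 1.22 to 2.58 in the other GREEN samples and -1.86 to 0.42 in CTL. Fancd2 on the same scale was -1.46, -1.57 and -0.60 in RED 1, RED 2 and GREEN 1, 0.31 to 0.58 in RED 3 to RED 5, 0.21 to 0.81 in the other GREEN samples and -1.90 to -1.46 in CTL. Of the 10 genes that passed the test in any comparison, 2 had RED 1, RED 2 and GREEN 1 below all the other injured samples, namely Fancd2 and Bard1 (-0.19 to 0.15, beside 0.26 to 1.34 in the others). In 7 the ranges overlapped, and in 6 of these (Rad51ap1, Rad54l, Rbbp8, Fanca, Eme1 and Slx4) 2 of the 3 lowest injured values came from those samples. Rbbp8 had 2.79 to 3.08 in them, beside 2.99 to 4.74, Rad51ap1 had -1.79 to -0.25, beside -0.66 to 0.60, and Fanca had 1.44 to 1.51, beside 1.44 to 2.02. Exo1 had 1 of its 3 lowest injured values there. In Rad51b the order was the opposite, its 3 highest injured values being those of RED 1, RED 2 and GREEN 1 (5.73, 4.81 and 4.74). All 3 samples had low Ddx3y, as had RED 3, GREEN 2 and GREEN 5, and Rad51b was higher with low Ddx3y in every group. The part of the Ddx3y class in this order was not tested. GREEN 5, at 1.22 in mitosis genes, lay close to RED 1 at 1.05 but was counted with the others. It was the lowest injured sample of Eme1 (-2.07). The share of all genes tested with such an order was not computed, so these counts have no background to be read against. The part of dividing cells in the change of each gene was not tested.

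**Figure D4:**
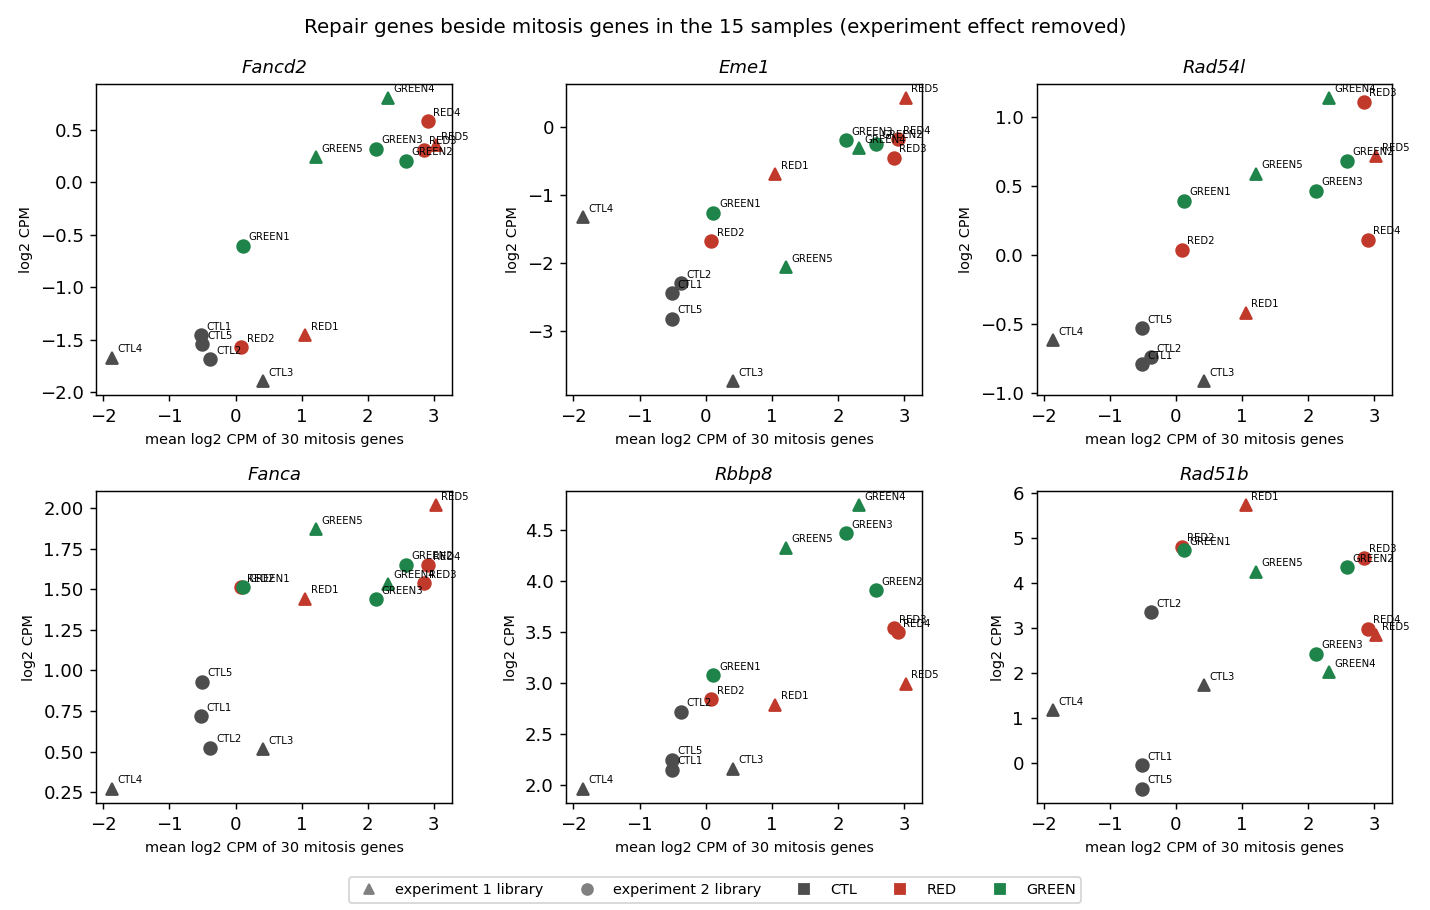
Log2 CPM of 6 repair genes (vertical axes) against the mean log2 CPM of 30 mitosis genes (horizontal axes) in the 15 samples, with the experiment effect removed from both. Colours are groups, triangles are experiment 1 libraries and circles are experiment 2 libraries; RED 1, RED 2 and GREEN 1 stand apart from the other injured samples in Fancd2 (-1.57 to -0.60) and among them in Fanca (1.44 to 1.51).

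Of the 4 helicases and junction nucleases, Eme1 and Slx4 rose, and Brip1 and Blm did not pass. Eme1, the partner of the nuclease Mus81 that cuts branched DNA (chromosome 11, 94644996 to 94653964), had 0.208, 0.235, 0, 0.228 and 0.148 CPM in CTL. Of the injured samples, the values were 0.382, 0.389, 0.982, 1.19 and 0.895 in RED and 0.538, 1.14, 1.18, 0.512 and 0.115 in GREEN. CTL 3 again had a count of 0, which allows up to 0.118 CPM. All RED samples were above all CTL samples, RED 1 and RED 2 being the lowest RED samples, and GREEN 5 fell within the CTL range. RED exceeded CTL by 2.32 on the log2 scale (SE 0.64, adjusted p = 0.022; 2.06 and 2.10 within experiments 1 and 2), a call that ended without CTL 1, CTL 5, RED 4 or RED 5 (adjusted p = 0.058 to 0.065). GREEN exceeded CTL by 2.04 (SE 0.63, adjusted p = 0.016; 1.23 and 2.26) with every sample left out in turn. With the block of library codes neither call of Eme1 passed (adjusted p = 0.17 and 0.14). Nor did the RED call in experiment 1 or 2 alone (0.18 and 0.055) or the GREEN call in experiment 1 alone (0.34). The median count was 15.4 per library.

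Slx4, the scaffold that holds several nucleases (chromosome 16, 3979105 to 4003770), had 5.12, 4.05, 6.26, 3.02 and 3.42 CPM in CTL. The values after injury were 6.15, 4.96, 8.29, 13.1 and 4.63 in RED and 6.02, 7.80, 13.0, 8.91 and 11.3 in GREEN. GREEN 1 alone of the GREEN samples lay within the CTL range, as did RED 1, RED 2 and RED 5. GREEN exceeded CTL by 1.10 on the log2 scale (SE 0.32, adjusted p = 0.011; 1.33 and 1.09 within experiments 1 and 2) in all 15 fits without a sample, but not with the block of library codes (adjusted p = 0.067), in experiment 2 alone (0.091) or without GREEN 4 and GREEN 5 (0.16). RED over CTL was 0.75 (SE 0.32) and did not pass (adjusted p = 0.15).

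Blm, the helicase that dissolves crossed strands, had the most negative value among the members in GREEN over CTL, -0.52 (SE 0.22), from 4.36 ± 0.897 CPM in CTL to 3.06 ± 0.769 in GREEN. It did not pass by edgeR (adjusted p = 0.062) and was lower by DESeq2 (adjusted p = 0.015). Brip1, the Brca1-bound helicase also known as Fancj, ranged from 3.36 to 5.96 CPM in CTL, 3.06 to 9.89 in RED and 1.75 to 7.73 in GREEN, with log2 fold changes from -0.40 to 0.13 (SE 0.31).

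Groups that do not overlap at all were found for 3 members in RED over CTL (Rad51ap1, Rbbp8 and Eme1), 1 in GREEN over RED (Rad50) and 5 in GREEN over CTL (Bard1, Rad52, Rad54l, Rbbp8 and Fancd2), in each case with the first group higher. Over all genes tested, 10.6%, 6.66% and 21% had such a separation in that direction.

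The level of several members differed between the 2 experiments. Kit and depth both differed between the experiments, and the part of each was not tested. CTL 5, RED 2, RED 3 and RED 4 had a library in each experiment, and the median log2 difference, experiment 2 minus experiment 1, was 0.31 over the 32 genes and 0.09 over all genes tested. Of the members 15 (46.9%) were higher in experiment 2 in all 4 samples and 3 (9.38%) were lower in all 4, against 35.3% and 27.1% of all genes tested. Mean differences were largest for Exo1 (1.31), Bard1 (1.22), Brca2 (0.97), Fanci (0.95) and Rad54l (0.91). The 3 that were lower were Rad51b (-0.70), Fancg (-0.34) and Rad51d (-0.20). The experiment was a term of the model, and each group had the same number of libraries from each.

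**Figure D5:**
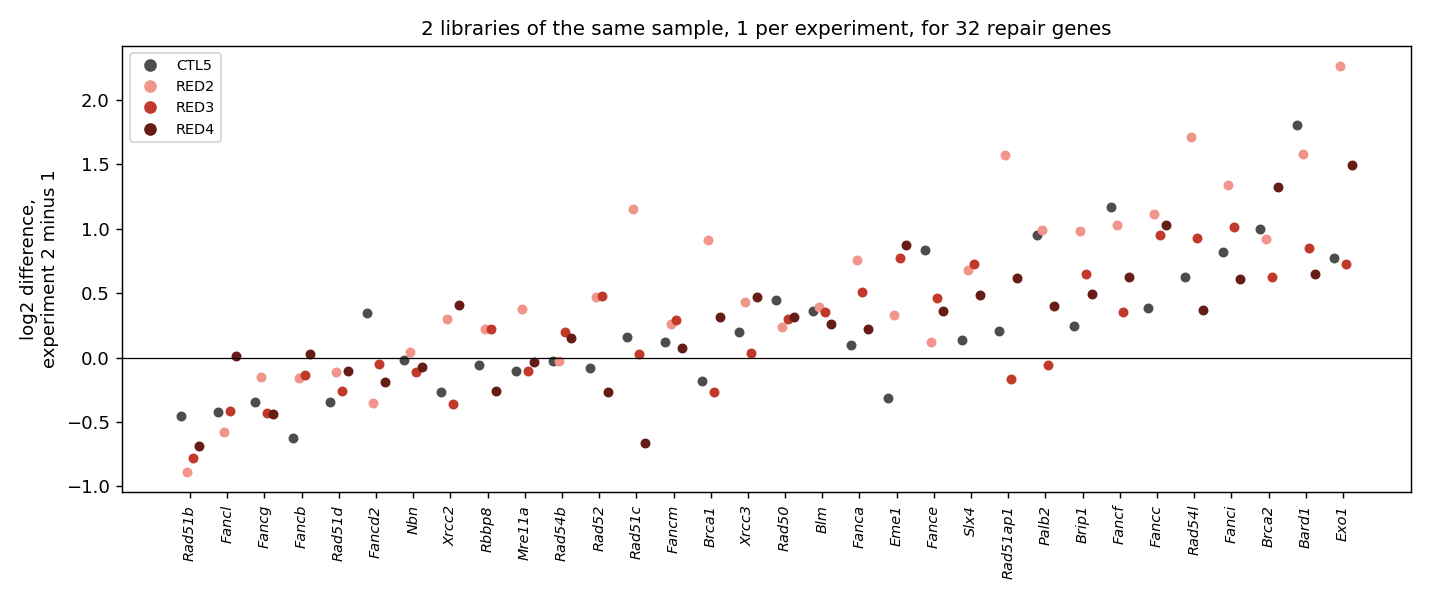
Log2 difference in level between the 2 libraries of the same sample, experiment 2 minus experiment 1 (vertical axis), for the 32 genes in order of their mean difference (horizontal axis). Each point is 1 of the 4 samples sequenced in both experiments; all 4 points of Exo1 are above 0 and all 4 of Rad51b below it.

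Exons of 16 of the 32 genes overlap those of another gene in the GENCODE annotation, and the sources do not state whether counting used the strand. Among the genes that rose, Fanca overlaps Zfp276, whose log2 fold changes were -0.05 in RED over CTL and -0.12 in GREEN over CTL, and Rad54l overlaps Lrrc41, at 0.04 and -0.12. Eme1 overlaps Lrrc59 (0.15 and -0.28) and Mrpl27 (-0.04 and -0.60, the latter called lower with adjusted p = 0.013), Fancd2 overlaps Fancd2os, at a mean of 0.0077 CPM, and Rbbp8 overlaps AC090479.2, for which no value was used. Mean levels were 15.8 CPM for Zfp276, 32.5 for Lrrc41, 85.8 for Lrrc59 and 23.6 for Mrpl27. Each mean lay above every sample of the overlapped member, Fanca, Rad54l or Eme1. In GREEN over RED, where none of these 3 members passed, Zfp276 was at -0.08 beside -0.04 for Fanca, Lrrc41 at -0.15 beside 0.27 for Rad54l, and Lrrc59 and Mrpl27 at -0.44 and -0.56 beside -0.28 for Eme1. The part of reads shared with these genes was not tested.

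Other repair genes were counted from lists outside the 32. Of 45 further genes of both pathways, 4 rose in RED over CTL, 2 in GREEN over RED and 10 in GREEN over CTL, where 3 fell, with medians of 0.04, 0.02 and 0.12. In RED over CTL these were Rad18, a ubiquitin ligase of damage tolerance (1.08, SE 0.33, adjusted p = 0.038), Polq, the polymerase of an end-joining route that competes with recombination (1.22, SE 0.35, adjusted p = 0.027), Fignl1, an ATPase of recombination (1.77, SE 0.52, adjusted p = 0.032), and Mms22l, which helps recombination at stalled forks (1.10, SE 0.20, adjusted p = 0.0015). Mms22l went from 1.52 ± 0.478 CPM in CTL to 3.20 ± 0.725 in RED and 2.50 ± 0.551 in GREEN.

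In GREEN over RED the 2 were Psmc3ip, known as Hop2 (1.81, SE 0.44, adjusted p = 0.019), and Faap100, a core complex subunit (0.69, SE 0.20, adjusted p = 0.041). The 10 of GREEN over CTL were Uhrf1 (2.26), Psmc3ip (1.74), Fignl1 (1.67), BC030867 (1.29; also called Hrob), Polq (1.27), Ercc1 (1.05), Ube2t (0.86), Mms22l (0.75), Faap100 (0.63) and Topbp1 (0.59). Ube2t is the conjugating enzyme of the Fanconi core complex, and Ercc1 is part of a nuclease that cuts at crosslinks. The 3 that fell were the nuclease Dna2, from 14.0 ± 0.869 to 6.61 ± 4.06 CPM (-1.16, SE 0.33, adjusted p = 0.011), Mnd1, the partner of Hop2 (-0.57), and Swi5 (-0.46).

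Of 20 damage checkpoint kinases and mediators, Clspn (1.94, SE 0.49, adjusted p = 0.013) and Rad1 (0.51) rose in RED over CTL, Wee1 and Trp53bp1 in GREEN over RED, and Clspn, Trp53bp1, Wee1, Rif1 and Mdc1 in GREEN over CTL. Trp53bp1, which restrains resection, went from 16.0 ± 3.72 CPM in CTL and 18.1 ± 3.83 in RED to 41.5 ± 15.7 in GREEN, 1.17 on the log2 scale above RED (SE 0.26, adjusted p = 0.012). Wee1, the kinase that delays entry into mitosis, went from 4.41 ± 1.25 and 4.35 ± 1.12 to 10.9 ± 3.70 CPM, 1.30 above RED (SE 0.31, adjusted p = 0.016). Of 35 genes of excision repair, mismatch repair and end joining, 0 passed in RED over CTL (1 higher and 2 lower at an unadjusted p under 0.05 by edgeR, 2 lower by DESeq2 and 0 by limma-voom), 1 rose in GREEN over RED, and 5 rose and 2 fell in GREEN over CTL, with medians of -0.06, 0.07 and -0.02. Of 35 DNA replication genes, 2 rose and 1 fell both in RED over CTL and in GREEN over RED, and 15 rose and 2 fell in GREEN over CTL, while of the 23 tested p53 targets 8 rose and 0 fell in RED over CTL, 0 rose and 1 fell in GREEN over RED, and 8 rose and 2 fell in GREEN over CTL.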

How the data were processed

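Both deposited tables gave estimated counts by gene, made by the authors and not normalized. They come from kallisto 0.43.1 on the build GRCm38, per the submitters' processing notes; no annotation release or way of summing transcripts is stated. Per the labels' protocols, each library started from 150 ng of total RNA. Totals per library were 22442607 to 34216824 estimated counts in the 10 libraries of experiment 1 and 38061859 to 44177627 in the 9 of experiment 2. Symbols and positions came from GENCODE M21 (GRCm38), in which 34845 of 35274 identifiers (98.8%) were found.

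Counts were rounded, filtered with filterByExpr (16387 genes left), scaled by TMM and fitted with group and experiment as terms in edgeR 4.0.16 (R 4.3.3), 1 library per sample (15 libraries; the experiment 2 library of the 4 samples with 2). A gene was called at an adjusted p under 0.05 over all genes; the script was tested on simulated data. Standard errors are the log2 fold change over the square root of F. Levels are TMM-scaled CPM. Experiment 1 alone had 3 CTL, 5 RED and 2 GREEN libraries, and experiment 2 alone had 3 of each. CTL 5, RED 2, RED 3 and RED 4 were in both, so these 2 fits share samples. Their experiment 1 libraries were not in the main fit. Alternatives were DESeq2 1.42.0, limma-voom 3.58.1, other scaling, filters and libraries, blocks, and each sample left out. P-values set each difference against the spread between these samples. They treat samples that share a library code as separate.

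The genes, lists and alternatives were chosen with earlier results of these data known. Every member was named; those past the threshold were given in full. From the other lists, counts and the called genes of the recombination and checkpoint lists were given. Some items of the lists are not reported here.

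Library codes in the labels pair RED 2 with GREEN 1, RED 3 with GREEN 2 and RED 4 with GREEN 3 in experiment 2, and their deviations from the group means correlated over genes (r = 0.577, 0.398 and 0.78). They were taken as pairs only in the alternative with a block of library codes. The main fit and its p-values did not use the pairs and treated the 15 samples as separate. Whether paired samples share an animal is not stated. RED 5 and GREEN 5 of experiment 1 also share a code (r = -0.223) but differ in Ddx3y, and were not paired. RED 4 and GREEN 4 share one too, both with high Ddx3y (r = 0.467 and 0.189 for the experiment 2 and 1 libraries of RED 4). GREEN 4 was left unpaired, since RED 4 entered with its experiment 2 library, paired with GREEN 3 of the same code. GREEN 3 and GREEN 4 share a code in different experiments (r = 0.363, against 0.362 to 0.656 for the 4 samples with 2 libraries); the labels number them as separate samples, and results without either are in the replicate-wise alternatives.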

Additional observations from a re-analysis of the deposited data

Results flagged for a closer look

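In each group of 5 samples, the highest or lowest value of each of the 32 genes was set against the others by its gap to the nearest sample as a share of the group's range. Of 96 groups 2 were flagged, and chance alone flags about 1 in 20. Rad51ap1 was at 1.63 CPM in RED 5, against 0.509 to 0.814 in the other RED samples, a gap of 0.729 of the range. RED 5 also had the highest endothelial (2537 CPM), matrix (1985 CPM) and macrophage (1721 CPM) marker sums of the RED samples, and the part of those cells in the value was not tested. Rad50 was at 20.8 CPM in GREEN 4, against 14.1 to 14.9 in the other GREEN samples, a gap of 0.885 of the range. GREEN 4 had the highest biliary marker sum (9478 CPM) and the lowest hepatocyte marker sum (44174 CPM) of the 15 samples.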

How the results depend on the processing

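The numbers of members called were 7 in RED over CTL, 1 in GREEN over RED and 10 in GREEN over CTL, and no call changed sign under any alternative. In RED over CTL 4 were called by limma-voom, 3 with the experiment 1 library of the samples that have 2, 3 from experiment 1 by itself, 0 from experiment 2 by itself and 2 with a replicate block of title numbers. In GREEN over RED there were 2 by DESeq2, 0 by limma-voom, 4 by library totals, 2 from experiment 1 and 0 from experiment 2 by itself, and 0 with GREEN 4 and GREEN 5 left out, with or without GREEN 3. In GREEN over CTL there were 26 by library totals, 4 from experiment 2 by itself, 5 with GREEN 4 and GREEN 5 left out, and 1 (Rbbp8) when GREEN 3 was left out too. Leaving out each sample gave 2 to 8, 0 to 1 and 7 to 11. Library totals in place of TMM moved the median of all genes from 0.05, -0.02 and 0.11 to 0.33, 0.42 and 0.83 (log2), so its added calls lie on a shifted scale. The replicate block of library codes gave 5, 1 and 7; it sets CTL against the injured groups from experiment 1 libraries alone. Samples that share a title number had r from -0.223 to 0.578, which overlaps the 0.398 to 0.78 of the code pairs of experiment 2. These correlations do not settle which samples belong together. The single experiments have fewer samples; otherwise the cause of these changes was not tested. Members with counts under 10 in some libraries (Bard1, Rad51ap1, Rad54l, Exo1, Fancd2 and Eme1) are limited by depth. The Y-linked class as a term, added after seeing the data, gave 8, 1 and 10.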
